A study of Rattus norvegicus with 2 samples.

Results

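The genes described here are 10 activity-regulated genes of neurons, whose transcription is raised when a neuron is stimulated: the transcription factor genes Fos, Fosb, Junb, Egr1, Egr3, Npas4 and Nr4a1, the cytosolic effector gene Arc, and the secreted protein genes Bdnf and Nptx2. They were chosen by name out of 25628 genes in the deposited count table, and 9 of the 10 have a row of that name. The RNA of Junb was not analysed here. They were read in RNA pulled down from rat primary cortical neurons with either P180-GFPbio or GFPbio. P180, encoded by Rrbp1, is a ribosome receptor of the endoplasmic reticulum (ER) membrane, here fused to GFP with a tag that carries biotin, and GFPbio is the tagged GFP alone, which serves as the control for RNA that sticks to the tag or to the streptavidin beads. The cultures of both groups were kept in neurobasal medium with B27 supplement, glutamine and glutamate, and the labels record no treatment, so no group was stimulated as far as they say. The study describes primary cultures from embryonic Wistar rats for hippocampal neurons; whether the same holds for the cortical cultures, their days in culture and the way the constructs entered the cortical cells are not stated in these sources.

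Immediate early genes are transcribed within minutes of synaptic input, without new protein synthesis, through transcription factors such as CREB and SRF that calcium and MAP kinase signals switch on. Many of their products are nuclear transcription factors, which are made on free ribosomes in the cytosol. The neurotrophin Bdnf and the pentraxin Nptx2 carry signal peptides and are made on ribosomes bound to the ER, which is the membrane P180 resides in. Their mRNAs tend to be short-lived and scarce in resting neurons.

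Since 1 library of each condition was mapped by the labels and used, called the P180 pull-down and the GFP pull-down, no difference below has a replicate check, no p-value is given, and each ratio compares these libraries, not the conditions. The P180 pull-down held 6298343 counts and the GFP pull-down 8428358. Counts were divided by size factors of 0.846 and 1.18, and a gene was called measured when both libraries together held at least 10 counts. Intervals are 95% exact counting intervals and cover counting error only. Rrbp1 stood at 403 CPM (counts scaled by the total of each library) in the P180 pull-down and 158 in the GFP pull-down, whereas EGFP_avitag, the tag carried by both constructs, took 1.02% and 2.25% of counts. The P180 pull-down detected 13407 genes, of which 17.9% had 1 to 9 counts, and the GFP pull-down detected 9345, of which 7.64% had so few. Low counts were therefore rarer in the GFP pull-down, although it was the deeper one.

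Most of the members were barely present in either pull-down. Of the 9 with a row, 3 were measured, 4 had from 2 to 7 counts in all, and 2 had none in either library. Among the measured ones Egr1 was at least 2-fold higher in the P180 pull-down, and Bdnf and Nr4a1 were at least 2-fold lower there. Over all 11468 measured genes 40.6% were at least 2-fold higher and 19.9% at least 2-fold lower, so 1 of 3 and 2 of 3 are too few to set apart from these shares. All 3 had counts in both libraries, and of genes with counts in both 25.6% were at least 2-fold higher and 24.0% lower. The median log2 ratio of the 3, P180 over GFP, was -1.57, against 0.45 for all measured genes. The 0.45 includes genes with no count in the GFP pull-down, which are called higher by construction. For genes with counts in both libraries, the size factors set the median at equality. The median of the 3 is the value of Nr4a1, the middle one, and says nothing of the members that were not measured.

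**Figure D1:**
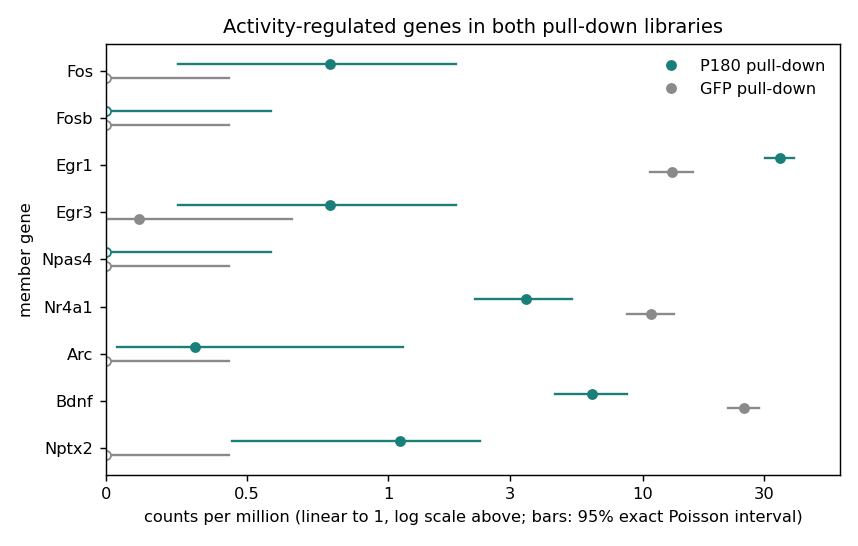
Counts, scaled to CPM, of the 9 members with a row in the P180 pull-down (green) and the GFP pull-down (grey), with 95% exact Poisson intervals; the axis is linear up to 1 and logarithmic above, and open circles are libraries with no count. The intervals of the libraries are apart for Egr1, which is higher in the P180 pull-down, and for Nr4a1 and Bdnf, which are higher in the GFP pull-down.

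Egr1 encodes a zinc finger transcription factor that is widely used as a marker of recent neuronal activity, and it was the member with the most counts in the P180 pull-down. It had 218 counts there, or 34.6 CPM (95% exact Poisson interval 30.2 to 39.5). In the GFP pull-down it had 110 counts, or 13.1 CPM (10.7 to 15.7). These intervals do not overlap, and the ratio of scaled counts was 2.77 (2.19 to 3.51), a log2 ratio of 1.47 (1.13 to 1.81). Of all measured genes, 65.3% had a lower ratio, but the 2343 with no count in the GFP pull-down rank above Egr1 by construction. Of genes with 50 to 500 counts in the GFP pull-down, as Egr1 had, 21.5% were higher and 28.1% lower by at least 2-fold.

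The promoter of Egr1 is shown because it holds a sequence of a kind known to link such genes to stimulation, a link that was not tested here. In the RefSeq window of 300 bases (GRCr8, plus strand, from 250 bases before the start site to 50 after), 2 CArG boxes, the core of the serum response element that SRF binds, begin 105 and 83 bases before the start site. They are printed in capitals with 10 bases on each side, the upper one at chr18:26736963-26736992 and the lower one at chr18:26736985-26737014.
Egr1 CArG box, farther from the start site: gtcggtccttCCATATTAGGgcttcctgct
Egr1 CArG box, nearer to the start site: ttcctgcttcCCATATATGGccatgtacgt
A CArG box was present in 1.64% of the 33469 promoter windows and, among the 7 members with a window, in that of Egr1 alone. Fos, Arc and Egr3 had no window to search. A match describes the DNA of the gene and is not a measure of the RNA that was pulled down.

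Nr4a1 encodes an orphan nuclear receptor (Nur77) that is induced along with Fos and Egr1 and acts in the nucleus. Its direction was opposite to that of Egr1. It had 22 counts in the P180 pull-down, or 3.49 CPM (2.19 to 5.29), and 91 counts in the GFP pull-down, or 10.8 CPM (8.69 to 13.3). The P180 pull-down thus held the lower level, and the intervals were apart. The ratio of scaled counts was 0.338 (0.202 to 0.543), or 2.96-fold lower. Of all measured genes, 12.4% had a lower ratio.

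Bdnf encodes brain-derived neurotrophic factor, which is folded in the ER, packed into secretory vesicles and released onto the receptor TrkB. Of the 3 measured members it had the lowest ratio. It had 40 counts in the P180 pull-down, or 6.35 CPM (4.54 to 8.65), and 211 counts in the GFP pull-down, or 25.0 CPM (21.8 to 28.7). The P180 pull-down held less Bdnf RNA, and the intervals were apart. The ratio of scaled counts was 0.265 (0.184 to 0.373), or 3.78-fold lower, a log2 ratio of -1.92 (-2.44 to -1.42). These intervals are too narrow if reads were not collapsed by molecular identifier. In all, 9.24% of measured genes had a lower ratio. Genes with 50 to 500 counts in the GFP pull-down, the range Bdnf falls in, were at least 2-fold lower in the P180 pull-down in 28.1% of cases and at least 2-fold higher in 21.5%. The counts are given per gene, so transcripts from the several promoters of Bdnf, and its short and long 3' ends, cannot be told apart.

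The promoters of Bdnf and Nr4a1 were searched for the cAMP response element that CREB binds, and the matches nearest to a start site are shown. Neither held the full element TGACGTCA on either strand, nor did any other member's window, and 1.83% of all windows did. The shorter core TGACG, which is part of the full element, occurs on either strand in 21.2% of all windows, so a match to it is common. Of the 6 start sites listed for Bdnf 1 had it, beginning 35 bases before the start (chr3:116637813-116637837, GRCr8, plus strand), and Nr4a1 had it 53 bases before (chr7:134260075-134260099, plus strand) and at 3 places farther off. In both lines below the core lies on the opposite strand and so reads CGTCA, in capitals.
Bdnf, core of the cAMP response element: tgacagctcaCGTCAaggcagcgtg
Nr4a1, core of the cAMP response element: cctctccatgCGTCAcggagcgctt
The windows of Egr1, Nptx2 and Junb held the core as well, and those of Fosb and Npas4 did not.

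The other members with counts had fewer than 10 in all. Fos, whose product pairs with Jun proteins to form the factor AP-1, had 5 counts in the P180 pull-down and none in the GFP pull-down. Nptx2, which encodes a secreted pentraxin that clusters AMPA receptors, had 7 and none. Both therefore had their few counts in the P180 pull-down. Against a floor of 3 counts in the GFP pull-down, Fos was 2.33-fold higher (lower counting limit 1.28) and Nptx2 3.26-fold higher (2.01). These folds depend on the floor and are not lower bounds. Egr3, a relative of Egr1, had 5 counts in the P180 pull-down and 1 in the GFP pull-down, with a ratio of 6.99 whose interval, 0.782 to 330, leaves the direction unsettled. Arc, whose protein controls the uptake of AMPA receptors from the synapse, had 2 counts in the P180 pull-down and none in the GFP pull-down, both under the floor, so no fold is given. Of all genes with 1 to 9 counts in the P180 pull-down, 80.8% had none in the GFP pull-down, and Fos, Nptx2 and Arc share that pattern.

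Fosb, an AP-1 gene, and Npas4, a transcription factor gene that is switched on by calcium entry in neurons, had no count in either library. A count of 0 still allows up to 0.476 CPM in the P180 pull-down and 0.356 CPM in the GFP pull-down, the level of 3 counts; the exact intervals drawn for these genes reach 0.586 and 0.438 CPM. Over all genes 46.8% had no count in either library and 44.7% were measured. Summed over the members, the P180 pull-down held 299 counts (47.5 CPM) and the GFP pull-down 413 (49.0 CPM). The totals behind CPM include mitochondrial genes, which took 7.31% of counts in the P180 pull-down and 16.6% in the GFP pull-down. Egr1 made up most of the sum in the P180 pull-down, and Bdnf about as much as the rest together in the GFP pull-down.

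Relatives of the members, encoded by the same gene families, did not all share their direction. In the Egr family, Egr2 had 22 and 23 counts in the P180 and GFP libraries (log2 ratio 0.42, -0.49 to 1.33). Egr4 had 14 and none, 6.52-fold higher against the floor of 3 counts (lower counting limit 4.63). With no count in the GFP pull-down, a measured gene is called higher by construction. The interval of Egr2 overlaps that of Egr1. In the Nr4a family, Nr4a3 had 331 and 969 counts (-1.07, -1.25 to -0.89) and lay on the same side as Nr4a1. Nr4a2, which also specifies dopamine neurons, had 340 and 288 counts (0.72, 0.49 to 0.95), and its interval overlaps neither of the other two.
Among the partners of Fos, the genes of the Jun proteins were well counted and lay near equality. Jun had 395 and 529 counts (0.06, -0.13 to 0.25) and Jund, which is expressed without stimulation, had 957 and 1446 (-0.11, -0.23 to 0.01). Fosl2, a Fos relative, had 11 and none, 5.12-fold higher against the same floor (lower counting limit 3.51), and like Egr4 was called higher by construction. Fosl1 had no count in either library.

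**Figure D2:**
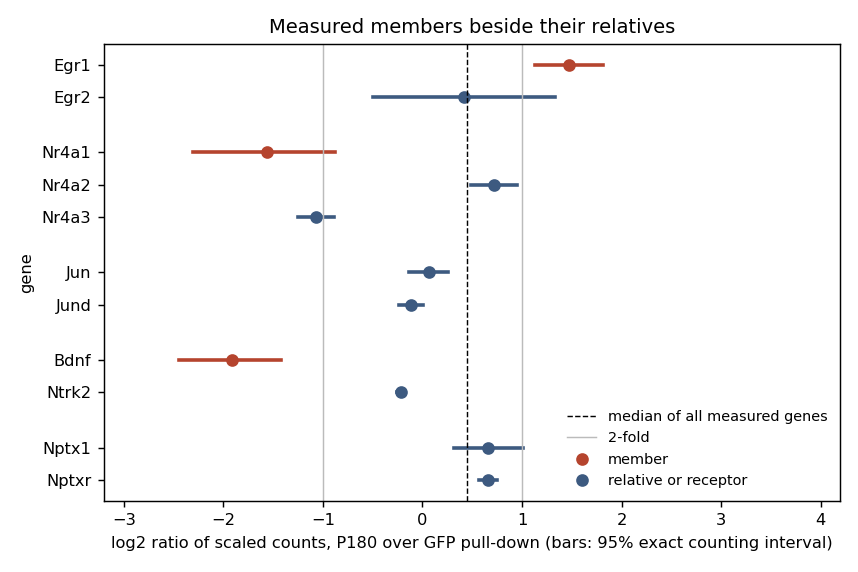
Log2 ratio of scaled counts, P180 over GFP pull-down, of the measured members (red) and of relatives or receptors with counts in both libraries (blue), with 95% exact counting intervals; grey lines mark 2-fold and the dashed line the median of all measured genes, 0.45. Egr1 lies to the right, Nr4a1, Nr4a3 and Bdnf lie to the left, and Jun, Jund and Ntrk2 lie within 2-fold.

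The receptor and the relatives of the secreted members were present at higher counts. Ntrk2 encodes TrkB, the receptor of Bdnf and a membrane protein itself. It had 8831 counts in the P180 pull-down and 14356 in the GFP pull-down (log2 ratio -0.22, -0.26 to -0.18), an interval well above that of Bdnf. The pentraxins Nptx1, which is secreted, and Nptxr, which is anchored in the membrane, form complexes with Nptx2. Nptx1 had 153 and 135 counts (0.66, 0.32 to 1.01) and Nptxr 2043 and 1811 (0.66, 0.56 to 0.75), so both were higher in the P180 pull-down by less than 2-fold.

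Other immediate early genes, listed for their known induction, were spread to both sides. Of 56, 55 had a row, 38 were measured, 14 of these lay at least 2-fold higher in the P180 pull-down (36.8%) and 5 at least 2-fold lower (13.2%), beside 40.6% and 19.9% of all measured genes. For 10 of the 14, the GFP pull-down had no count, where a measured gene is called higher by construction. With counts in both libraries 4 of 28 were higher and 5 lower, beside 25.6% and 24.0% of all such genes.
The lowest ratio belonged to Homer1, which encodes a postsynaptic scaffold whose short form is induced by activity. It had 95 and 675 counts (log2 ratio -2.35, -2.67 to -2.04), and counts per gene do not separate its short and long forms. Btg1, an antiproliferative gene, had 91 and 413 counts (-1.70, -2.04 to -1.37), and Plk2, a kinase that weakens strongly driven synapses, had 296 and 1152 (-1.48, -1.67 to -1.29). Together with Nr4a3 and Myc these were the 5 lower genes. Rheb, the GTPase that activates mTOR, had 634 and 1607 counts (-0.86, -0.99 to -0.73), under 2-fold, and the zinc finger gene Klf6 had 633 and 788 (0.17, 0.01 to 0.32). Of genes with mean scaled counts of 100 or more, the highest ratio was that of Arih1, a ubiquitin ligase gene, with 216 and 143 counts (1.08, 0.77 to 1.39), followed by Nr4a2.

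Activity-regulated genes whose proteins are secreted or sit in membranes, as those of Bdnf and Nptx2 are, were found on both sides as well. Of 35, 33 had a row and 26 were measured, 9 lay at least 2-fold higher in the P180 pull-down and 9 at least 2-fold lower (34.6% each), beside 40.6% and 19.9% of all measured genes. Their median log2 ratio was 0.37 beside 0.45 for all measured genes, and 0.09 for those with counts in both libraries. The size factors set the median of all genes with counts in both at equality. With counts in both libraries 7 of 23 were higher and 8 lower, beside 25.6% and 24.0% of all such genes.
Some genes of this kind were lower in the P180 pull-down by more than 2-fold, as Bdnf was. Nrn1, which encodes neuritin, a lipid-anchored protein that promotes neurite growth, had 110 and 1146 counts (log2 ratio -2.90, -3.19 to -2.62). Inhba, which encodes a subunit of the secreted factor activin, had 101 and 835 (-2.57, -2.88 to -2.27). Scg2, the granule protein secretogranin II that is sorted into the same kind of vesicle as Bdnf, had 1635 and 4753 (-1.06, -1.14 to -0.98).
Others stood on the opposite side. Cd63, a tetraspanin of late endosomes, had 2320 and 630 counts (2.36, 2.23 to 2.49), and Sorcs3, a sorting receptor, had 503 and 250 (1.49, 1.27 to 1.72). Vgf, a neurotrophin-induced granule protein gene named after its value was seen, had 1215 and 822 (1.05, 0.92 to 1.18). Sst, the neuropeptide somatostatin, had 2495 and 1835 (0.93, 0.84 to 1.01), and Pcdh8, an activity-induced protocadherin, had 1458 and 2503 (-0.30, -0.39 to -0.20), both under 2-fold.

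**Figure D3:**
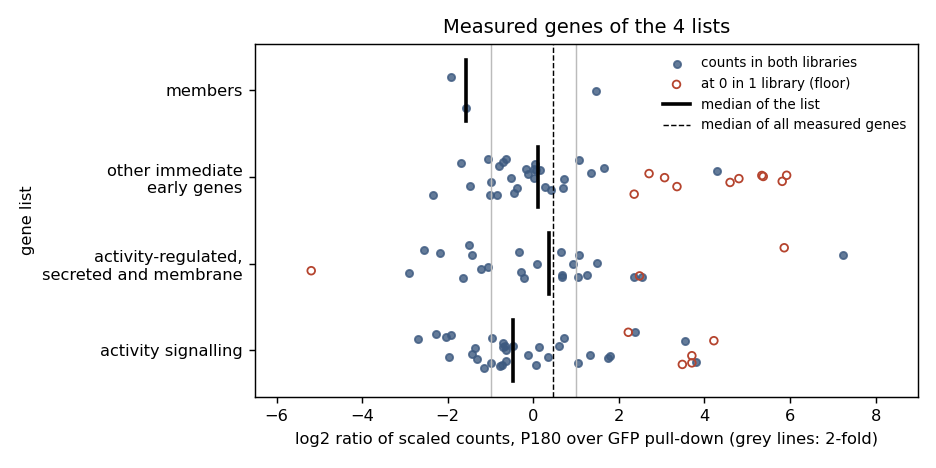
Log2 ratio of scaled counts, P180 over GFP pull-down, for every measured gene of 4 lists; filled points have counts in both libraries, open points are at 0 in 1 library and drawn at the floor of 3 counts, black bars are list medians and the dashed line is the median of all measured genes, 0.45. Each list reaches past 2-fold (grey lines) on both sides, and the open points of the 38 immediate early genes lie on the right.

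The kinases and factors that carry the activity signal to these genes were measured too. Of 45, 43 had a row, 37 were measured, 12 lay at least 2-fold higher in the P180 pull-down (32.4%) and 9 at least 2-fold lower (24.3%), beside 40.6% and 19.9% of all measured genes. Their median log2 ratio was -0.47 beside 0.45 for all measured genes, and -0.65 for those with counts in both libraries. The size factors set the median of all genes with counts in both at equality. With counts in both libraries 7 of 32 signalling genes were higher and 9 lower, beside 25.6% and 24.0%. Among those with the most counts, Calm2, a gene of the calcium sensor calmodulin (-0.47, -0.54 to -0.41), the kinase gene Camk2b (0.35, 0.29 to 0.41) and the calcineurin gene Ppp3cb (-0.65, -0.74 to -0.57) lay within 2-fold.
Camk4, a nuclear kinase that phosphorylates CREB, had 30 and 270 counts (-2.69, -3.28 to -2.14), and Camkk1, which encodes a kinase that activates it, had 34 and 231 (-2.28, -2.85 to -1.76). These 2 were the lowest with mean scaled counts of 100 or more. At the other end were Rps6ka2, a kinase gene of the MAP kinase pathway, with 283 and 76 counts (2.38, 2.01 to 2.76), and Hdac5, a histone deacetylase gene that represses MEF2 targets, with 262 and 106 (1.79, 1.46 to 2.13). Creb1 itself had 28 counts in the P180 pull-down and none in the GFP pull-down, 13.0-fold higher against the floor of 3 counts (lower counting limit 9.92). A measured gene with no count in the GFP pull-down is called higher by construction. Of the 11468 measured genes, 2343 had none there.

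The libraries also differed in markers of other cells, whose counts are to be read against the 40.6% of all measured genes that were higher and the 19.9% that were lower. All 10 neuronal markers, such as Tubb3 and Map2, were detected in both libraries, with 1 higher and 1 lower by at least 2-fold and a summed level of 7475 CPM in the P180 pull-down and 8004 CPM in the GFP pull-down. Astrocyte markers were mostly higher in the P180 pull-down by that factor, 8 of 10 with 0 lower, with sums of 10288 and 2503 CPM, and Slc1a2 and Aldh1l1 were at 0 in the GFP pull-down. Of 8 markers of dividing cells 7 were higher and 0 lower (118 and 12.6 CPM), and Mki67 and Cdk1 were among the 5 at 0 in the GFP pull-down. Oligodendrocyte markers had 4 of 7 measured genes higher and 1 lower (619 and 295 CPM). Microglial markers had 100 counts in the P180 pull-down and none in the GFP pull-down, and endothelial and mural markers 86 and none. Fibroblast markers had 39 and 483 counts, all 483 from Col3a1. Egr1 and other immediate early genes can be expressed in glia and dividing cells as well as in neurons. The part of these cells in the ratios of Egr1, Nr4a1 and Bdnf was not tested. In RNA pulled down from whole cultures, fewer cells of a type, less RNA per cell and less of that RNA pulled down cannot be told apart.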

How the data were processed

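RNA from streptavidin pull-downs of P180-GFPbio and GFPbio was read in 1 library each. The authors deposited raw counts per gene: adapted CEL-Seq2 (3' end) libraries, demultiplexed with je-suite, read 2 aligned to mRatBN7 and counted with STARsolo 2.7.10a (also in the submitters' processing notes), multi-mapping reads discarded. The annotation release, and whether reads were collapsed by molecular identifier, is not given in the sources used here; without collapsing, intervals are too narrow. The 2 further count columns are named as second replicates of P180-GFPbio and GFPbio; they match no sample as given here and were not used, so the authors' DESeq2 test was not repeated.

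Here 92 ERCC rows (2 and 9 counts) were left out, the analysis kept genes whose counts in the libraries summed to 10 or more, from which median-of-ratios size factors were computed to scale the counts. Ratio intervals are Clopper-Pearson intervals for the P180 share of each gene's counts. For folds, a count of 0 was replaced by 3 counts, the floor. Alternatives were TMM, total counts with and without mitochondrial genes and EGFP_avitag, 3 other filters, a floor of 1 count and a thinned GFP pull-down. The steps were tested on simulated Poisson counts with a mean shared by both libraries except for planted changes. That simulation modelled neither read duplication nor the difference in genes detected, and so does not test the effect of either. The members and lists were chosen with earlier results of these data known. Named were all members, and of each further list the 5 genes with the most counts and the 2 highest and 2 lowest ratios at mean scaled counts of 100 or more, except for 2 signalling genes that are not reported here; relatives of members (Egr2, Egr4, Jun, Fosl1, Fosl2, Nptx1), Vgf, Myc and Creb1 were named after their values were seen. Promoter windows are RefSeq's (GRCr8), not the build of the counts; 7 of 10 members matched. Python 3.11.15, numpy 2.4.6, pandas 2.3.3, scipy 1.17.1, matplotlib 3.10.9 and R 4.3.3 with edgeR 4.0.16 (TMM only) were used.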

Additional observations from a re-analysis of the deposited data

How the results depend on the processing

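Egr1, Nr4a1 and Bdnf kept their direction and stayed past 2-fold under all alternatives that measured them, with log2 ratios from 1.23 to 1.50, -1.80 to -1.57 and -2.15 to -1.92; mean scaled counts of 100 or more left Nr4a1 out. This is a weak check, because filters and the floor cannot change a ratio of genes with counts in both libraries. The other scalings shift all log2 ratios by -0.03 to -0.24, too little to bring these genes within 2-fold. Only the thinned GFP pull-down could have differed. Without the minimum of 10 counts, genes with more than 3 counts in at least 1 library were kept, which left Arc out. Fos, Egr3 and Nptx2 then joined Egr1, which made 4 of 6 members higher and turned the median of the members to 1.34. The added genes had up to 7 counts, and the folds of Fos and Nptx2 depend on the floor. With mean scaled counts of 100 or more, 1 member (Bdnf) was lower and the median of the 2 left was -0.22. The same filter left 1 other immediate early gene, 4 secreted and membrane genes and 5 signalling genes higher, and counts required in both libraries left 4 immediate early genes and 7 signalling genes higher. Total counts without mitochondrial genes and the tag, which shift all log2 ratios by -0.24, made 8 immediate early genes lower instead of 5. The other 62 of 72 list results stayed within 1.5 times their value or inside the counting interval. Under the floor of 1 count this was fixed beforehand, since a measured gene at 0 in 1 library passes 2-fold at either floor. It was also fixed for the members when counts in both libraries were required, since all measured members have them. No paired analysis was possible because the labels map 1 library to each condition, and for the same reason no replicate could be left out. Fos, Fosb, Egr3, Npas4, Arc and Nptx2 had fewer than 10 counts in all, so statements on them rest on very few reads.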
